A study of Mus musculus with 15 samples.

Results

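Microglia, the resident macrophages of the brain, were compared with and without a load of lipid in mouse brain tumours. Members were the libraries titled as lipid-laden microglia and those titled as non-lipid-laden microglia, 4 of each, which made 8 of the 15 libraries of the series. Cells of both groups had been sorted by flow cytometry from primary tumours of the same model, in which PDGFB is expressed in Nestin-positive progenitor cells on an Ink4a/Arf knockout background, so both groups shared that genotype. Each title carries a number (221, 224, 431 or 718) that occurs once in each group, and the libraries were paired by it. The labels name no treatment, age or sex, do not say whether a number stands for 1 animal, and do not give the stain or the gate that set lipid load. The other 7 libraries were of monocyte-derived macrophages (MDM) from tumours of the same model, 4 without and 3 with lipid load, under the same numbers. They entered the fit to estimate the spread and are described only beside genes named for microglia.

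Microglia clear debris and dying cells, and in damaged or demyelinated tissue they can take up more lipid than they can pass on. Surplus cholesterol and fatty acids are then esterified and kept in lipid droplets, whose coat proteins (perilipins) control access for lipases. In such tissue microglia lower their resting, homeostatic genes and raise a disease-associated set that overlaps the lipid-associated set of macrophages in fat and atheroma. Growing gliomas also hold areas short of oxygen, where cells raise glycolytic enzymes and other targets of the hypoxia-inducible factors.

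The total count per library was 7842531 to 9658143 without and 8962885 to 9797627 with lipid load, and 15541 to 17900 genes had at least 1 count. Of the 25 homeostatic microglia genes listed as markers, all 25 had counts in all 8 libraries, with a summed level of 12178 to 29296 CPM (CPM, counts scaled to a common library size with TMM factors). Log2 fold changes are given ± their standard error (SE). In values listed for 4 libraries below, the order of the numbers is 221, 224, 431 and 718. Mitochondrially encoded RNA made up 0.643, 0.709, 0.986 and 0.686% of counts without and 0.956, 0.998, 1.09 and 0.834% with lipid load. That share was higher in all 4 pairs, with a two-sided exact permutation p of 0.0857 for 4 against 4 and of 0.125 over the pairs, the smallest that 4 pairs allow. In a principal component analysis of the 8 libraries, the lipid-laden library 221 stood apart on the first component (28.0% of the variance), at 137 against -56.3 to 26.5 for the other 7. The lipid-laden library 431 stood apart on the second (19.5%), at -116. Library pairs with the same number deviated from their group means together (Pearson r across genes 0.124 to 0.256 in the 4 pairs, against -0.200 to 0.0941 in the 12 pairings of different numbers), so the number was kept as a block in the fit.

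The first question was which genes differed with lipid load within a number. Of 14843 genes tested, 119 passed an edgeR adjusted p of 0.05 and are called below (0.802%), 60 higher (0.404%) and 59 lower (0.397%) in lipid-laden microglia. The higher ones were led by the matrix protease Mmp12 and held 9 glycolytic enzymes, 7 other hypoxia-response genes and 7 disease- or lipid-associated genes. Among the lower ones were 7 immediate early genes and the splicing kinase genes Clk1 and Clk4. All 119 are protein-coding in the annotation. Of the 60 higher genes, 60 were higher in all 4 pairs, 41 had lipid-laden values that were all above the non-lipid-laden ones, and 21 differed at least 2-fold. Of the 59 lower genes, 58 were lower in all 4 pairs, 39 had values that did not overlap, and 12 differed at least 2-fold. The exception among pairs was Dpp4, with 0 counts in both libraries of number 431. For comparison, 1514 of all genes tested (10.2%) were higher and 1762 (11.9%) lower in all 4 pairs, and 393 (2.65%) and 417 (2.81%) did not overlap. These shares over all genes are the comparison for the gene lists below too. Those lists were chosen with earlier results of these data known, so their counts and shares are descriptions.

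These calls rested on the block and on number 718. Without the block edgeR called 0 genes (smallest adjusted p 0.0717; 1367 genes had an unadjusted p under 0.05), and with the block but without the libraries of number 718 it called 0 (1348 genes with an unadjusted p under 0.05), which holds for every call given below. Under every alternative run, each of the 119 genes that was tested kept its direction. With the block DESeq2 called 590 of 10526 genes and limma-voom 212 of 14843, among them 119 and 116 of the 119. List counts by DESeq2 and limma-voom below are to be read against those totals, not against the edgeR share. With the block and other scalings or robust shrinkage, 1842 to 1880 of 14843 genes had an unadjusted p under 0.05. That range is the comparison for unadjusted counts of the lists. Just inside the threshold lay the oxygen-sensor gene Egln3 (1.28 ± 0.27, edgeR adjusted p = 0.0489) and the RNA helicase gene Ddx3x (-0.55, edgeR adjusted p = 0.0497). Just outside lay Gclm, of glutathione synthesis (1.12, edgeR adjusted p = 0.0509), Lrpap1 (0.51, the same adjusted p) and Impdh1 (1.75, edgeR adjusted p = 0.0512).

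**Figure D1:**
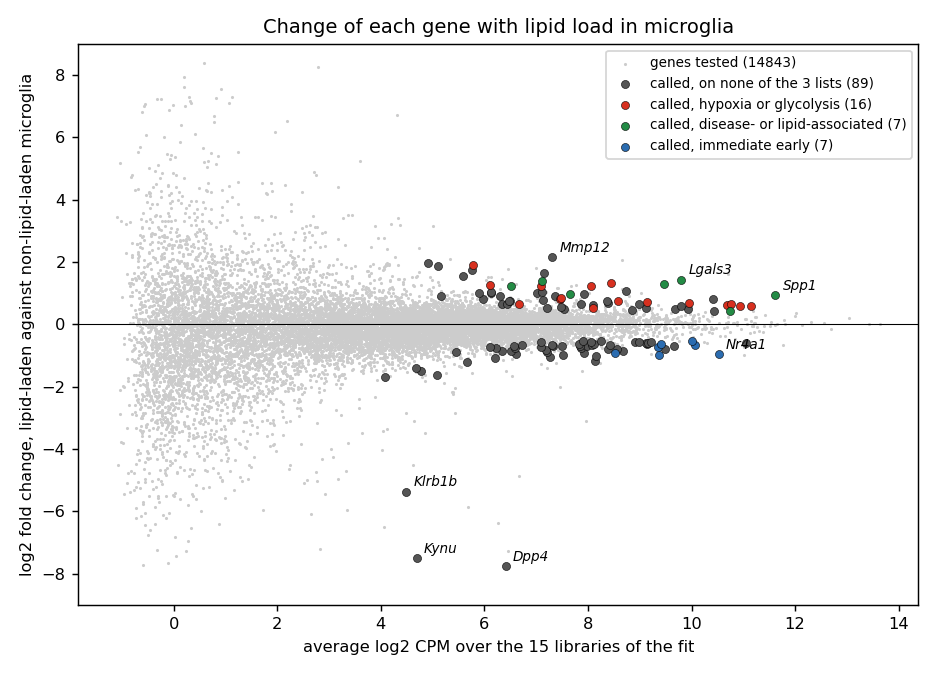
Log2 fold change of lipid-laden against non-lipid-laden microglia (vertical axis) against the average log2 CPM over the 15 libraries of the fit (horizontal axis) for the 14843 genes tested, 1 of which lies outside the vertical axis; coloured points are the 119 called genes. Called genes of the hypoxia and glycolysis lists (16) and the disease- and lipid-associated list (7) lie above 0, and those of the immediate early list (7) lie below.

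The pairs shared this pattern with different strength. The median log2 difference of the 60 higher genes was 0.90, 0.63, 0.93 and 0.80 in numbers 221, 224, 431 and 718, and that of the 59 lower genes was -0.85, -0.68, -0.66 and -0.79, as a description of genes chosen by this contrast. Across 9353 genes, the log2 differences of any 2 numbers correlated with a Pearson r of 0.146 to 0.233, given as a description across genes of 1 experiment. Over all genes tested, the log2 differences had an SD of 1.45, 1.20, 1.37 and 1.06, so number 221 had the widest spread and 718 the narrowest.

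**Figure D2:**
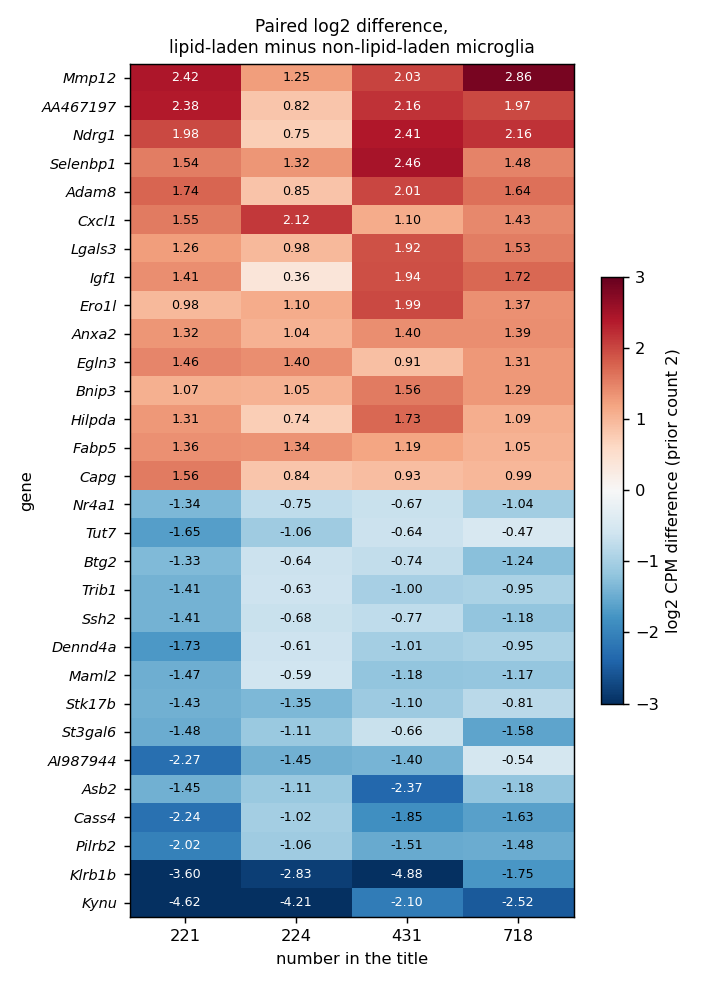
Log2 CPM difference (prior count 2) of lipid-laden minus non-lipid-laden microglia in each number (columns) for the called genes named by rule for their size of change, 15 increased and 15 decreased (one gene in each line), with colours that stop at -3 and 3. Each gene keeps its sign in the 4 numbers, and Mmp12 ranges from 1.25 in number 224 to 2.86 in number 718.

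Mmp12, which encodes the macrophage elastase that breaks down elastin (ENSMUSG00000049723, chromosome 9, 7344381 to 7369499), had the largest increase among called genes. It was at 181, 32.3, 65.0 and 37.4 CPM in non-lipid-laden and 972, 77.0, 267 and 273 CPM in lipid-laden microglia (log2 fold change 2.16 ± 0.27, edgeR adjusted p = 0.00533). It was 2.42, 1.25, 2.03 and 2.86 higher on the log2 scale within the 4 numbers, while the groups overlapped because number 221 was high in both. Spp1, the osteopontin gene, was at 1128, 1611, 2128 and 2954 CPM without and 2906, 2518, 3990.4 and 5109.6 CPM with lipid load (log2 fold change 0.93 ± 0.17, edgeR adjusted p = 0.0276), and again every pair rose while the groups overlapped.

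Part of the disease- and lipid-associated list was higher. All 28 members passed the count filter, and 7 were called, all higher (25.0%, against 0.802% of all genes). The others called, beside Spp1, were the galectin genes Lgals3 and Lgals1, the fatty acid carrier gene Fabp5, the membrane-binding annexin gene Anxa2, the growth factor gene Igf1 and the endosomal glycoprotein gene Cd68. In all 4 pairs 16 members were higher and none was lower. The median log2 fold change of the 28 was 0.34, against -0.04 over all genes tested, and it was 0.40, 0.36, 0.23 and 0.22 in the 4 numbers. DESeq2 called 11 members and limma-voom 8, and without number 221 edgeR called 2. Lgals3, galectin-3, binds sugars on damaged lysosomes and on the cell surface (ENSMUSG00000050335, chromosome 14, 47367751 to 47386160). It was at 823, 375, 402 and 495 CPM without and 1973, 739, 1519 and 1435 CPM with lipid load (log2 fold change 1.44 ± 0.18, edgeR adjusted p = 0.00533). Its lowest lipid-laden value, in number 224, lay below the non-lipid-laden value of number 221. Anxa2 was at 599.5, 299.9, 407 and 429 CPM without and 1492, 617, 1075 and 1127 CPM with lipid load (log2 fold change 1.30 ± 0.17, edgeR adjusted p = 0.00533) with no overlap, the closest values being those of number 224 with and number 221 without lipid load.

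Of the 21 lipid uptake genes tested, edgeR called 1 (4.8%, against 0.802% of all genes), DESeq2 4 and limma-voom 3, all higher. The 1 called by edgeR was Fabp5, which carries fatty acids within the cell. It was at 56.1, 41.0, 60.6 and 76.1 CPM without and 144, 104, 138 and 158 CPM with lipid load (log2 fold change 1.23 ± 0.19, edgeR adjusted p = 0.0117), with no overlap between the groups. Igf1 was at 184, 74.5, 26.3 and 73.3 CPM without and 487, 95.9, 101 and 243 CPM with lipid load (log2 fold change 1.41 ± 0.27, edgeR adjusted p = 0.0312), and it rose least in number 224. Lgals1 was higher by 0.98 ± 0.15 (edgeR adjusted p = 0.0115), and Cd68, with the smallest change of the 60 genes, by 0.41 ± 0.08 (edgeR adjusted p = 0.0361). Some genes for which lipid-associated cells are known were not called. Gpnmb, a glycoprotein of lipid-associated macrophages, was at 421, 37.1, 71.2 and 140.0 CPM without and 1293, 149, 366 and 843 CPM with lipid load, with a log2 fold change of 2.06 ± 0.59 (edgeR adjusted p = 0.143). Its values were higher in all 4 pairs and spread widely within each group. Trem2, a receptor for lipids, was at 909 ± 118 CPM without and 915 ± 192 CPM with lipid load (SD, n = 4 each; log2 fold change 0.01 ± 0.14, edgeR adjusted p = 0.994). Apoe, the apolipoprotein that carries lipid between brain cells, was at 11481 ± 2329 and 11502 ± 1752 CPM (log2 fold change 0.01 ± 0.11, edgeR adjusted p = 0.995), with 2 pairs higher and 2 lower for either gene.

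**Figure D3:**
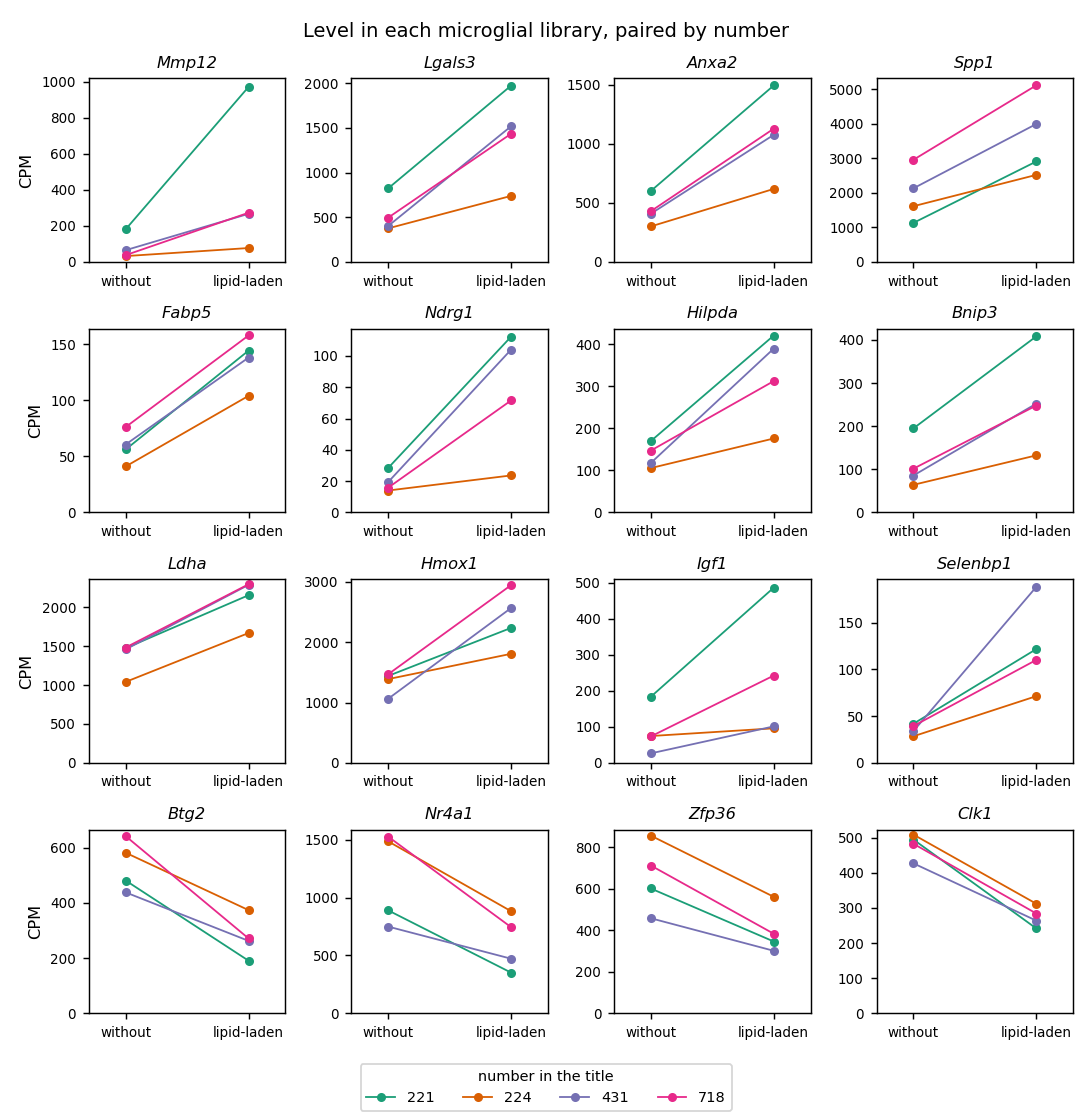
Level in CPM (vertical axis, linear, from 0) of 16 genes in the non-lipid-laden and lipid-laden library of each number, joined by a line for each pair. The lines of the upper 12 genes rise in each number and those of Btg2, Nr4a1, Zfp36 and Clk1 fall in each.

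Lipid droplet genes were examined as genes of lipid storage. Of 26 listed genes of droplet coat and lipolysis 19 were tested, and 2 were called, both higher: Hilpda and Plin3 (10.5%, against 0.802% of all genes). The median was 0.35. In all 4 pairs 7 were higher and 2 lower, against 10.2% and 11.9% of all genes. DESeq2 called 6 members and limma-voom 2, all higher. Hilpda encodes an inhibitor of the triglyceride lipase that hypoxia induces (ENSMUSG00000043421, chromosome 6, 29272488 to 29275446). It was at 169, 105, 117 and 147 CPM without and 420.4, 176, 389 and 312 CPM with lipid load (log2 fold change 1.24 ± 0.17, edgeR adjusted p = 0.00645) with no overlap, and number 224 rose least. Plin3, a perilipin of small droplets, was at 79.5, 64.4, 61.8 and 72.6 CPM without and 164, 96.1, 88.8 and 129 CPM with lipid load (log2 fold change 0.76 ± 0.15, edgeR adjusted p = 0.0371). Plin2, the main droplet coat gene of macrophages (ENSMUSG00000028494, chromosome 4, 86648386 to 86670060), was at 911, 700.4, 559 and 1100.1 CPM without and 1392, 825, 1009 and 1493 CPM with lipid load. It was higher in all 4 pairs and was not called (log2 fold change 0.55 ± 0.15, edgeR adjusted p = 0.137). Lpl, the lipoprotein lipase gene, was at 231, 272, 279 and 247 CPM without and 563, 349, 466 and 466 CPM with lipid load, higher in all 4 pairs and not called (log2 fold change 0.81 ± 0.21, edgeR adjusted p = 0.104). Cd36, a scavenger receptor, was at 292, 13.8, 33.7 and 1.26 CPM without and 349, 10.1, 22.4 and 19.6 CPM with lipid load, so that both libraries of number 221 stood above all others, and 2 pairs were higher and 2 lower (log2 fold change 0.28 ± 0.75, edgeR adjusted p = 0.936).

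Genes of sterol handling and fatty acid metabolism were examined next. Among 17 targets of the sterol receptor LXR tested, 2 were called (11.8%, against 0.802% of all genes). Scd2, a fatty acid desaturase, was higher (0.64 ± 0.12, edgeR adjusted p = 0.0287). Mylip, whose product sends the LDL receptor for breakdown, was lower (-0.53 ± 0.11, edgeR adjusted p = 0.0392). Scd2 was also the 1 called gene of 19 fatty acid synthesis genes tested (5.3%). Scd2 was at 231, 227, 212 and 201 CPM without and 279, 366, 368 and 356 CPM with lipid load. The median of the LXR list was 0.12. Abca1, the cholesterol exporter, was higher in all 4 pairs without a call (log2 fold change 0.22 ± 0.14, edgeR adjusted p = 0.585). Of 24 cholesterol synthesis genes tested edgeR called 0 (median 0.05; unadjusted p under 0.05 for 0 higher and 2 lower; DESeq2 0, limma-voom 0), with Fdft1 at -0.998 and Insig1 at -0.36. Of 23 fatty acid oxidation genes edgeR called 0, with 7 higher and 0 lower at an unadjusted p under 0.05 (DESeq2 0, limma-voom 0). Their median was 0.16, and Etfa, which passes electrons from acyl-CoA oxidation to the respiratory chain, was at 0.40 ± 0.13 (edgeR adjusted p = 0.218). Of 40 lysosome genes 12 were higher and 2 lower in all 4 pairs, against 10.2% and 11.9% of all genes. Cd68 alone was called (2.5%, against 0.802% of all genes). The median was 0.12, and DESeq2 called 5, all higher.

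Hypoxia-response genes outside glycolysis were called in 1 direction. Of 26 listed, 24 were tested, and 7 were called, all higher (29.2%, against 0.802% of all genes): Ndrg1, Egln3, Ero1l, Bnip3, Bnip3l, Hilpda and Mif. In all 4 pairs 16 were higher and none was lower, and the median log2 fold change was 0.79, with 0.98, 0.65, 0.88 and 0.76 in the 4 numbers. Ndrg1, a stress-response gene that hypoxia-inducible factor controls (ENSMUSG00000005125, chromosome 15, 66929318 to 66969640), was at 28.4, 14.0, 19.4 and 15.8 CPM without and 112, 23.6, 104 and 71.6 CPM with lipid load (log2 fold change 1.91 ± 0.30, edgeR adjusted p = 0.0117). Number 224 rose least, and its lipid-laden value lay below the non-lipid-laden value of number 221, so the groups overlapped there. Bnip3, which targets mitochondria for autophagy, was at 195, 63.9, 85.5 and 101 CPM without and 408, 132, 252 and 248 CPM with lipid load (log2 fold change 1.24 ± 0.20, edgeR adjusted p = 0.0122). Its relative Bnip3l, of the same function, was at 173, 151, 122 and 149 CPM without and 339, 197, 279 and 249 CPM with lipid load (log2 fold change 0.83 ± 0.14, edgeR adjusted p = 0.0188). Ero1l, an oxidase that forms disulfide bonds in the endoplasmic reticulum, was higher by 1.34 ± 0.27 (edgeR adjusted p = 0.041), and Egln3, an oxygen-dependent hydroxylase that marks hypoxia-inducible factor for breakdown, by 1.28 ± 0.27 (edgeR adjusted p = 0.0489). The cytokine gene Mif was higher by 0.53 ± 0.10 (edgeR adjusted p = 0.0273). limma-voom called 11 members of this list and DESeq2 10, and without number 221 edgeR called 1.

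Glycolytic enzymes were called in the same direction. All 26 listed genes were tested and 9 were called, all higher (34.6%, against 0.802% of all genes): Gpi1, Aldoa, Tpi1, Gapdh, Pgk1, Pgam1, Eno1, Pkm and Ldha, in the order of their steps. In all 4 pairs 16 were higher and none was lower, and the median was 0.64, with 0.63, 0.39, 0.70 and 0.73 in the 4 numbers. Ldha, which turns pyruvate into lactate (ENSMUSG00000063229, chromosome 7, 46841475 to 46855627), was at 1473, 1039.7, 1458 and 1481 CPM without and 2154, 1668, 2287 and 2294 CPM with lipid load (log2 fold change 0.63 ± 0.08, edgeR adjusted p = 0.00533). No lipid-laden value lay below a non-lipid-laden one, and number 224 was lowest in both groups. Tpi1, a triose phosphate isomerase, was at 946, 714, 992 and 953 CPM without and 1625, 1023, 1618 and 1589 CPM with lipid load (log2 fold change 0.69 ± 0.08, edgeR adjusted p = 0.00533). Pgk1, phosphoglycerate kinase, was at 424, 279.8, 308 and 335 CPM without and 665, 434, 636 and 563 CPM with lipid load (log2 fold change 0.76 ± 0.10, edgeR adjusted p = 0.00627), and Pgam1, phosphoglycerate mutase, was higher by 0.84 ± 0.11 (edgeR adjusted p = 0.00533). Aldoa, the aldolase, was higher by 0.64 ± 0.07 (edgeR adjusted p = 0.00533), Gpi1 by 0.73, Gapdh by 0.64, Pkm by 0.60 and Eno1 by 0.58. Eno1b, a close copy of Eno1, was called too (0.64). Values of Eno1, Gapdh and other glycolytic genes with near-identical copies are uncertain, since the counting of shared reads was not given in the sources used here. DESeq2 called 14 members and limma-voom 12, and without number 221 edgeR called 5.

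The promoters of these genes are shown because hypoxia-inducible factors bind a core of ACGTG. It was searched on both strands (CACGT on the printed strand where the match is on the other) from 250 bases before to 50 after each RefSeq start, and it also lies within the E-box CACGTG. Of 41 hypoxia and glycolysis genes with a promoter entry, 31 held it (75.6%), against 3146 of 10901 genes tested with an entry (28.9%), and 10 of 13 called members held it. The GC content of those promoters was 61.8%, against 60.4% over all. A gene counted if any of its promoters held a match. The lists were made up of hypoxia-response genes and glycolytic enzymes, so their share does not bear on lipid load. A match is a description of these windows only, and binding was not measured. Below are the 250 bases before the start, 5′ to 3′ in the direction of transcription (RefSeq, GRCm38.p6), for the 4 called members with the smallest p that hold a match, with matches in capitals. They are Ldha at chr7:46845554-46845803 on the plus strand, Pgk1 at chrX:106186850-106187099 on the plus strand, Pgam1 at chr19:41911621-41911870 on the plus strand and Aldoa at chr7:126799255-126799504 on the minus strand.
Ldha: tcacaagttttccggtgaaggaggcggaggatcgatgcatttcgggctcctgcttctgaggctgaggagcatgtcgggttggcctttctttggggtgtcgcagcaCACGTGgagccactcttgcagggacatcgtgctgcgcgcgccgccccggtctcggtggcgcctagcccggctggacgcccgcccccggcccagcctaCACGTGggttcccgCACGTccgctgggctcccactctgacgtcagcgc
Pgk1: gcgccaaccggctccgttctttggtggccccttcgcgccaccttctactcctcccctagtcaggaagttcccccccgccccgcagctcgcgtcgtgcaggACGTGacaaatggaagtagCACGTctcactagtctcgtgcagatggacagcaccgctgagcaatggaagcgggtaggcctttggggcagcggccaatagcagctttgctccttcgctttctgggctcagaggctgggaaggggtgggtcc
Pgam1: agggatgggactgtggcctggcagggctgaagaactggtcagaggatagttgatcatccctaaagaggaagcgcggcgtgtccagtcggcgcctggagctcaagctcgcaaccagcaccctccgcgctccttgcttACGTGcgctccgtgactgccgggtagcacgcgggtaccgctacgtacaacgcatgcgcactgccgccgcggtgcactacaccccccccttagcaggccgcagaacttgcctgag
Aldoa: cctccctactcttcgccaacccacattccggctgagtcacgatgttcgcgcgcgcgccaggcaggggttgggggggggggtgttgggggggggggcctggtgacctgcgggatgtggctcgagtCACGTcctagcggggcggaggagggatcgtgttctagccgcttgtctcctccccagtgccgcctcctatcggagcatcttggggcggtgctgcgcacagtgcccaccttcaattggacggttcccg
Counting both strands, the Ldha window held 5 matches, in 2 E-boxes and 1 single match, the Pgk1 window 2, and the Pgam1 and Aldoa windows 1 each. Windows that held an exon of their gene in GENCODE M21 were left out by rule before these were chosen. The Ldha and Aldoa starts lie within the span of the gene in the deposited table.

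**Figure D4:**
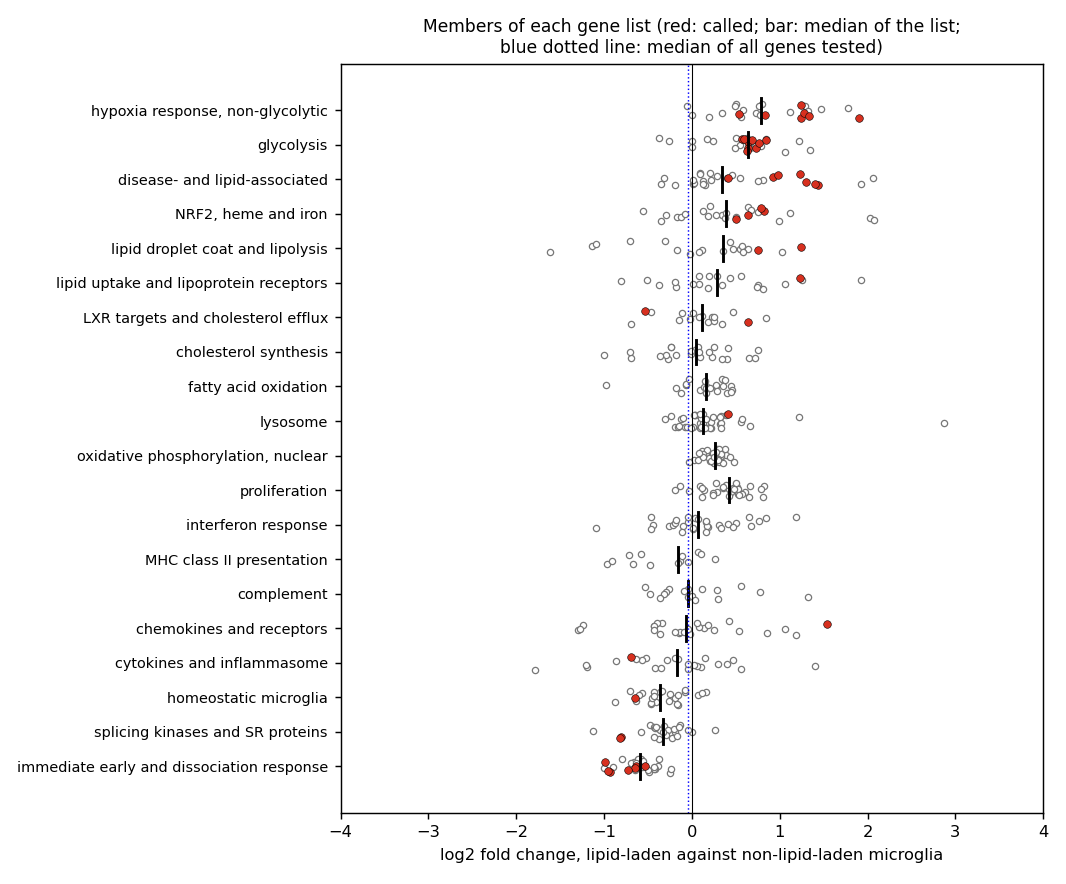
Log2 fold change (horizontal axis, -4 to 4, with 1 point outside) of each tested member of 20 gene lists (one line each), with called members in red, the median of each list as a bar and the median of all genes tested, -0.04, as a dotted line. Medians run from 0.79 for the hypoxia list to -0.60 for the immediate early list.

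Genes of heme breakdown and of the antioxidant factor NRF2 included higher ones too. All 25 members of the list passed the filter, and 4 were called, all higher (16.0%, against 0.802% of all genes): Hmox1, Blvrb, Slc48a1 and Prdx1. Hmox1 opens the heme ring and frees its iron (ENSMUSG00000005413, chromosome 8, 75093621 to 75100589). It was at 1442, 1389, 1063 and 1469 CPM without and 2238, 1808, 2568 and 2948 CPM with lipid load (log2 fold change 0.82 ± 0.13, edgeR adjusted p = 0.0117), with no overlap between the groups. Blvrb, which reduces the biliverdin that Hmox1 forms, was higher by 0.64 ± 0.13 (edgeR adjusted p = 0.0442), and Slc48a1, a heme transporter of the lysosome, by 0.79 ± 0.15 (edgeR adjusted p = 0.0287). Prdx1, a peroxide-reducing enzyme, was at 974, 632, 789.7 and 784 CPM without and 1519, 816, 1031 and 1174 CPM with lipid load (log2 fold change 0.50 ± 0.10, edgeR adjusted p = 0.0485). Of the list, 13 were higher and 3 lower in all 4 pairs, and its median was 0.38. DESeq2 called 9 members higher and 1 lower. The antioxidant response element core TGACNNNGC, searched on both strands in the same windows, was in 7 of 19 members with an entry (36.8%), against 16.9% of all genes with one. Of the 2 called members with an entry Prdx1 held it.

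Further called genes lay outside those groups. Selenbp1, a selenium-binding protein with methanethiol oxidase activity, was at 41.8, 28.4, 33.9 and 39.3 CPM without and 122, 71.3, 188 and 110.0 CPM with lipid load (log2 fold change 1.75 ± 0.29, edgeR adjusted p = 0.0153), with no overlap. Cxcl1, a neutrophil-attracting chemokine, was at 9.30, 11.8, 21.7 and 13.1 CPM without and 27.7, 52.0, 47.0 and 35.8 CPM with lipid load (log2 fold change 1.54 ± 0.30, edgeR adjusted p = 0.0371), and it was the 1 called gene of 26 chemokines and receptors (median -0.07). The 1 call was 3.8% of that list, against 0.802% of all genes. limma-voom called 0 of that list, and DESeq2 called 2 higher and 3 lower. Adam8, a membrane metalloprotease of myeloid cells, was higher by 1.65 ± 0.29 (edgeR adjusted p = 0.0214), the actin-capping gene Capg by 1.08 ± 0.13 (edgeR adjusted p = 0.00533) and the transcript AA467197 by 1.96 ± 0.30 (edgeR adjusted p = 0.0115). The last was at 6.61, 3.12, 3.27 and 3.29 CPM without and 35.3, 5.68, 15.3 and 13.5 CPM with lipid load. Of 28 growth factor and matrix genes tested, 3 were called, all higher (10.7%, against 0.802% of all genes): Mmp12, Spp1 and Igf1. Also called higher, and named after their values were seen, were Gpx4, the peroxidase that protects membrane lipids from oxidation (0.51), Taldo1 of the pentose phosphate pathway (0.54), the lactate transporter partner Bsg (0.60), Eif4ebp1, a brake on translation (0.90), and Fam162a, a hypoxia-induced mitochondrial protein (1.001).

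Immediate early genes were called in the opposite direction. All 28 members were tested, and 7 were called, all lower (25.0%, against 0.802% of all genes): Btg2, Nr4a1, Jun, Zfp36, Klf6, Ier2 and Atf3. In all 4 pairs 23 were lower and none was higher, and the median was -0.60, with -0.51, -0.62, -0.48 and -0.84 in the 4 numbers. These genes are switched on within minutes by growth factors and inflammatory signals, and also when tissue is dissociated. An effect of sample handling on them was not tested. Btg2, which restrains proliferation (ENSMUSG00000020423, chromosome 1, 134075170 to 134079120), was at 481, 582, 438 and 642 CPM without and 191, 374, 262 and 271 CPM with lipid load (log2 fold change -0.99 ± 0.12, edgeR adjusted p = 0.00533), with no overlap. Nr4a1, an orphan nuclear receptor, was at 890.1, 1487, 749.8 and 1527 CPM without and 352, 883, 472 and 744 CPM with lipid load (log2 fold change -0.95 ± 0.16, edgeR adjusted p = 0.0195). Every pair fell, and the lipid-laden value of number 224 lay above the lowest value without lipid load. Zfp36, which destabilises cytokine messenger RNA, was at 601, 855, 457 and 711 CPM without and 345, 561, 301 and 383 CPM with lipid load (log2 fold change -0.73 ± 0.10, edgeR adjusted p = 0.00664). The AP-1 subunit gene Jun fell by 0.93 on the log2 scale (edgeR adjusted p = 0.0444), the stress-induced factor gene Atf3 by 0.53 (edgeR adjusted p = 0.0214), Klf6 by 0.65 and Ier2 by 0.64. DESeq2 called 15 members and limma-voom 9, and without number 221 edgeR called 1. The cAMP response element TGACGTCA, searched on both strands, was in 3 of 25 members with a promoter entry (12%), against 3.4% of all. Among the called ones Btg2 held it, and its 250 bases before the start, at chr1:134079156-134079405 on the minus strand, are given with the match in capitals.
Btg2: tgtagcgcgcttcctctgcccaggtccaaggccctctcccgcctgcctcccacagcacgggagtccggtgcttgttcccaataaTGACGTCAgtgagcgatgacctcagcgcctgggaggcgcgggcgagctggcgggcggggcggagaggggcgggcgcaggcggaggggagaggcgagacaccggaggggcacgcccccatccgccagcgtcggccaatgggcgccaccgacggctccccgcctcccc

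Il1b, the interleukin-1 beta gene, was among the 59 lower genes, at 419.6, 348, 274 and 387 CPM without and 259, 224, 174 and 228 CPM with lipid load (log2 fold change -0.69 ± 0.11, edgeR adjusted p = 0.0117). It was the 1 called gene of 24 cytokine and inflammasome genes (4.2%, against 0.802% of all genes). Their median was -0.17, and DESeq2 called 6, all lower. Named after their values were seen, Rel, an NF-kappaB subunit (-0.87), Nfkbiz, a nuclear NF-kappaB cofactor (-0.58), the anti-apoptotic gene Mcl1 (-0.58), the histone demethylase gene Kdm6b (-0.71) and the sialic acid receptor gene Cd33 (-0.61) were called as well. Trib1, a pseudokinase that directs the factor C/EBP-alpha to breakdown, was at 184, 227, 202 and 243 CPM without and 69.1, 147, 101 and 125 CPM with lipid load (log2 fold change -0.997 ± 0.14, edgeR adjusted p = 0.00826). Stk17b, a serine/threonine kinase, was at 101, 132, 80.9 and 111 CPM without and 37.2, 51.5, 37.7 and 63.2 CPM with lipid load (log2 fold change -1.16 ± 0.13, edgeR adjusted p = 0.00533), and its groups did not overlap. Further decreases named by rule were those of the sialyltransferase gene St3gal6 (-1.20), Cass4 (-1.63), Asb2 (-1.51), the Notch coactivator gene Maml2 (-1.08), Dennd4a (-1.05), the cofilin phosphatase gene Ssh2 (-1.002), the RNA uridylyl transferase gene Tut7 (-0.96), Pilrb2 (-1.69) and AI987944 (-1.39). Pilrb2 and AI987944 have close copies, so their counts are uncertain.

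Splicing kinases were among the lower genes. Of 25 genes for splicing kinases and SR proteins, all tested, 2 were called, both lower (8.0%): Clk1 and Clk4, kinases that phosphorylate SR proteins. The share called over all genes was 0.802%, and this list was chosen with earlier results of these data known. In all 4 pairs 13 members were lower, against 11.9% of all genes, and none was higher. The groups did not overlap for 7 (2.81% of all genes), and the median was -0.33. Clk1 (ENSMUSG00000026034, chromosome 1, 58410189 to 58424066) was at 495, 509, 427 and 483 CPM without and 242, 312, 264 and 284 CPM with lipid load (log2 fold change -0.80 ± 0.10, edgeR adjusted p = 0.00533), with no overlap between the groups. Clk4 was at 181, 180.0, 152 and 179.8 CPM without and 76.1, 123, 83.9 and 114 CPM with lipid load (log2 fold change -0.82 ± 0.12, edgeR adjusted p = 0.0115). DESeq2 called 7 members of this list, all lower, and limma-voom 3.

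Homeostatic microglia genes gave 1 call. All 25 were tested, and Tgfbr1, the TGF-beta receptor on whose signal microglial identity depends, was called lower (4.0% of the list, against 0.802% of all genes). It was at 298, 435, 383 and 284 CPM without and 208, 313, 219 and 164 CPM with lipid load (log2 fold change -0.65 ± 0.12, edgeR adjusted p = 0.0273). In all 4 pairs 11 were lower (11.9% of all genes) and none was higher, and the median was -0.37, with -0.72, 0.01, -0.29 and -0.38 in the 4 numbers. P2ry12, the purinergic receptor of resting microglia, was at 773, 1218, 985 and 942 CPM without and 320.5, 1238, 594 and 636 CPM with lipid load (log2 fold change -0.57 ± 0.24, edgeR adjusted p = 0.347). Its value was lower in 3 pairs and higher in 1. Tmem119, another microglial marker, was lower in all 4 pairs without a call (log2 fold change -0.46 ± 0.22, edgeR adjusted p = 0.408). The summed level of the list was 18339, 28231, 24879 and 26364 CPM without and 12178, 29296, 22359 and 21858 CPM with lipid load. In bulk samples, fewer cells of a type and less RNA per cell cannot be told apart.

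A few called genes were at very low levels and are known from other cells. Kynu, an enzyme of tryptophan breakdown (ENSMUSG00000026866, chromosome 2, 43555329 to 43682715), had 98 counts over the 4 libraries without and 0 with lipid load, at least 35.9-fold lower against a floor of 3 counts over the group. Dpp4, a peptidase of some dendritic and T cells, had 109 and 0 counts, at least 40.0-fold lower, with 0 counts in both libraries of number 431. Both bounds are for the pooled libraries and cover counting error only, not the spread between libraries. Klrb1b, a lectin receptor of natural killer cells with close copies, had 106 and 2 counts, a ratio of 58.3 (95% exact binomial interval 15.7 to 488, counting error only). Kynu passed the count filter through its counts in MDM, while Dpp4 and Klrb1b had enough microglial counts to pass it in the fit of all libraries. None of these genes was tested where microglial libraries alone entered the fit. In MDM without lipid load the mean levels were 72.5 ± 22.2 CPM for Kynu, 288 ± 84.6 CPM for Dpp4 and 74.4 ± 7.00 CPM for Klrb1b (SD, n = 4), against 2.64 ± 2.13, 3.07 ± 2.25 and 2.97 ± 2.32 CPM in non-lipid-laden microglia. Markers of dendritic, T and NK cells are given beside them. Of 14 dendritic cell markers 12 had fewer raw counts over the 4 libraries with lipid load. Of 20 T and NK cell markers 11 had fewer, and their summed level was higher in 2 of the 4 pairs. Cd209a (111 counts without, 0 with) and Clec9a (9 and 0) had all their counts in 1 library, and Xcr1 was at 102 and 107. Without Siglech, which microglia express as well and which makes up most of the list, the summed level was 89.0, 149.6, 121 and 95.4 CPM without and 57.8, 109.7, 90.8 and 85.2 CPM with lipid load, lower in all 4 pairs. Ccr2, the receptor by which monocytes enter tissue, was at 13.2, 9.88, 4.78 and 5.93 CPM without and 6.42, 2.67, 0 and 5.68 CPM with lipid load. It is 1 of 24 MDM markers, of which 9 had fewer raw counts with lipid load and whose sum was higher in all 4 pairs. The part of such cells in these results was not tested.

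Other marker lists were summed in each library as well. The summed MDM markers were at 2685, 2058, 1809.9 and 2732 CPM without and 3367, 2461, 2667 and 3438 CPM with lipid load, higher in all 4 pairs, and without Lyz2, Fn1, Vim and Tgfbi they were at 459, 330.2, 293 and 359 CPM without and 554, 280.1, 402 and 481 CPM with lipid load, higher in 3. Endothelial and mural markers summed to 266, 44.3, 144 and 165 CPM without and 748, 75.9, 239 and 731 CPM with lipid load, higher in all 4 pairs, with 0 of the list called by edgeR (5 higher at an unadjusted p under 0.05; DESeq2 1, limma-voom 3) and the collagen genes Col1a1 (3.41 ± 0.84) and Col1a2 (3.23 ± 0.92) with the smallest p. Myelin markers without transferrin (Trf) were at 209, 217, 158 and 207 CPM without and 229, 209, 162 and 224 CPM with lipid load. Glioma and progenitor markers were at 718, 586, 213 and 561 CPM without and 425, 309, 280.4 and 774 CPM with lipid load, lower in 2 pairs and higher in 2. T and NK cell markers stayed at or below 19.6 CPM in every library, with 2 of 20 at 0 in all 8. Neutrophil markers without Csf3r were at 13.5, 16.7, 7.58 and 18.6 CPM without and 60.2, 18.2, 10.6 and 10.3 CPM with lipid load. Among them Mmp8 had 0 counts without and 209 with lipid load, in numbers 221, 431 and 718, and was not called (edgeR adjusted p = 0.0512). It was at least 63.3-fold higher against a floor of 3 counts, for pooled libraries and counting error only. Of the 14 neutrophil markers 4 had fewer raw counts with lipid load, and 4 were at 0 in all 8 libraries. Within pairs, a sum that moved one way in all 4 had an exact permutation p of 0.125, the smallest that 4 pairs allow, so this design cannot pass a threshold of 0.05 for any of them. Their part in the results above was not tested.

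**Figure D5:**
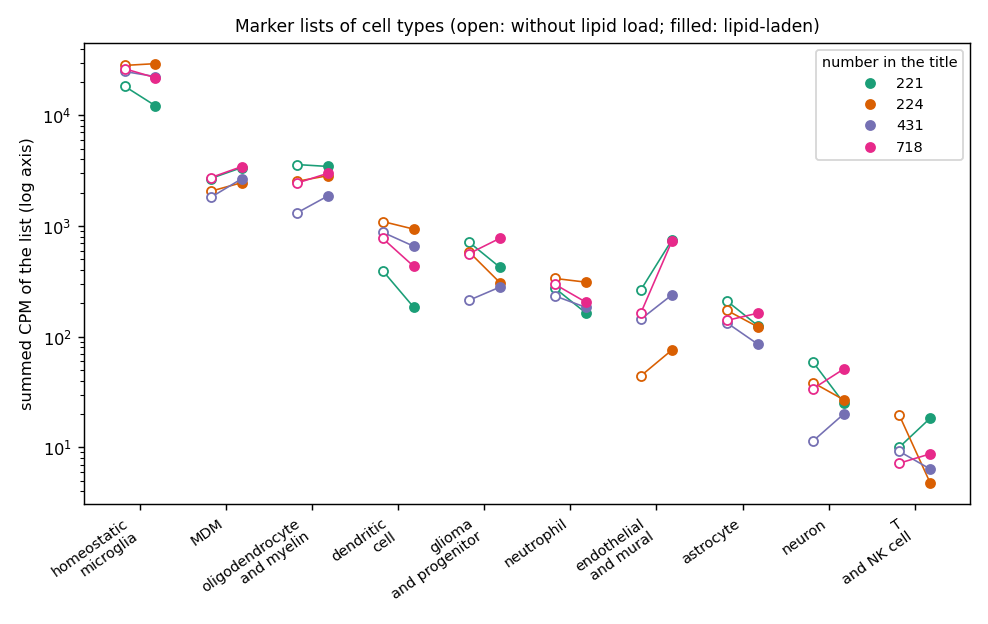
Summed CPM (vertical axis, log scale) of 10 marker lists in each library, open for non-lipid-laden and filled for lipid-laden microglia and joined by number. The dendritic cell sum is lower and the endothelial and mural sum is higher with lipid load in all 4 pairs.

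The remaining lists gave no call by edgeR. For comparison, 1842 to 1880 of all 14843 genes had an unadjusted p under 0.05 with the block and other scalings or robust shrinkage. DESeq2 called 590 of 10526 genes and limma-voom 212 of 14843. Of 38 nuclear genes of oxidative phosphorylation edgeR called 0, yet 19 were higher and none lower in all 4 pairs (median 0.26, with 0.28, 0.42, 0.24 and 0.05 in the 4 numbers; unadjusted p under 0.05 for 15, all higher; DESeq2 5, limma-voom 0). Of 12 mitochondrially encoded genes tested edgeR called 0 (median 0.44; unadjusted p under 0.05 for 7 higher; DESeq2 3, limma-voom 0), with mt-Co1 at 0.41 ± 0.12 (edgeR adjusted p = 0.151). Of 31 proliferation genes edgeR called 0 (median 0.42, with -0.08, 0.70, 0.20 and 0.44 in the 4 numbers; unadjusted 5 higher; DESeq2 1, limma-voom 1), and the mitotic cyclin gene Ccnb1 was at 0.66 ± 0.18 (edgeR adjusted p = 0.125). Ribosomal protein genes had a median of 0.16 (36 tested, edgeR 0, unadjusted 1 higher, DESeq2 0, limma-voom 0). Interferon-response genes had 0.07 (31 tested, edgeR 0, unadjusted 2 higher and 1 lower, DESeq2 1, limma-voom 0), with the antiviral gene Rsad2 at 1.18 ± 0.31 (edgeR adjusted p = 0.12). MHC class II genes had -0.16 (13 tested, edgeR 0, unadjusted 2 lower, DESeq2 0, limma-voom 0) and class I genes 0.05 (20 tested, 0 by each of these). Complement genes had -0.04 (19 tested, edgeR 0, unadjusted 1 higher and 3 lower, DESeq2 1, limma-voom 0), and those of the unfolded protein and integrated stress response 0.07 (25 tested, edgeR 0, unadjusted 2 higher and 3 lower, DESeq2 2, limma-voom 1). Of 25 immunoregulatory genes edgeR called 0 (median -0.08; unadjusted 3 higher and 4 lower; DESeq2 3 higher and 4 lower, limma-voom 1). Arg1, the arginase of alternatively activated macrophages, was at 2220.2, 195, 106 and 145 CPM without and 4632, 473, 533 and 647 CPM with lipid load (log2 fold change 1.63 ± 0.36, edgeR adjusted p = 0.059), and Tgfb1 was at 13.1, 30.9, 24.1 and 24.1 CPM without and 4.72, 15.9, 11.5 and 9.05 CPM with lipid load (log2 fold change -1.21 ± 0.26, edgeR adjusted p = 0.0552), both with the same direction in all 4 pairs.

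Called genes differed from the rest in gene structure (GENCODE M21). The median exonic length was 2559 bases for the 60 higher genes and 5797 for the 59 lower genes, against 4147 over all genes tested. The same order held among the 1514 genes higher in all 4 pairs (3218) and the 1762 lower in all 4 (5041). The median GC content of the longest transcript was 52.72% for the higher, 46.31% for the lower and 49.18% for all genes. Exonic length and GC content moved with the direction of change, and their part in it was not tested.

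Whether the change with lipid load differed between microglia and MDM was tested in the same fit, with both cell types' own controls. Over all genes 657 differed (4.43%). Of the called genes, 23 of the 60 higher and 17 of the 59 lower differed, with a smaller change in that direction in MDM for 21 and 15. These genes were chosen by their change in microglia, which is part of the difference, so the counts are a description. Ndrg1 rose in microglia and was at 88.5 ± 14.8 CPM without and 24.7 ± 5.32 CPM with lipid load in MDM (SD, n = 4 and 3; difference of log2 fold changes, MDM minus microglia, -3.71 ± 0.45, edgeR adjusted p = 0.00113). Hilpda was at 362 ± 49.7 CPM without and 232 ± 31.4 CPM with lipid load in MDM (difference -1.88 ± 0.26, edgeR adjusted p = 0.00188). Hmox1 differed the other way, at 392 ± 48.1 CPM without and 1331 ± 146 CPM with lipid load in MDM (difference 0.94 ± 0.19, edgeR adjusted p = 0.0154). Lpl, which was not called in microglia, was at 27.0 ± 10.5 CPM without and 149.9 ± 39.4 CPM with lipid load in MDM (difference 1.76 ± 0.31, edgeR adjusted p = 0.0069), and Trem2 at 318 ± 31.9 CPM without and 802 ± 71.9 CPM with lipid load (difference 1.31 ± 0.21, edgeR adjusted p = 0.00393). P2ry12 was at 147 ± 24.8 CPM without and 488 ± 48.2 CPM with lipid load (difference 2.30 ± 0.35, edgeR adjusted p = 0.00321). Spp1 did not pass this test (difference 0.09 ± 0.26, edgeR adjusted p = 0.908), nor did Plin2 (0.27 ± 0.23, edgeR adjusted p = 0.59), Fabp5 (-0.21 ± 0.29, edgeR adjusted p = 0.766) or Mmp12 (-1.39 ± 0.39, edgeR adjusted p = 0.0692). P2ry12 is a microglial marker, and the part of microglial RNA in the MDM libraries in these differences was not tested.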

How the data were processed

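Bulk RNA-seq counts of 15 libraries were used. Per the labels' protocols, RNA of sorted cells (integrity number above 8) was reverse transcribed by oligo-dT priming and template switching. The deposited table held whole-number counts per gene, not normalized, on mm10 per the submitters' processing notes. Not given in the sources used here are aligner, read counter and strandedness, and overlapping or antisense genes cannot be told apart. Groups came from the titles. For number 431, lipid-laden MDM were not analysed here.

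Counts were tested with edgeR 4.0.16 (R 4.3.3) by the quasi-likelihood F test, with TMM normalization, filterByExpr (minimum count 10, minimum total 15; 14843 of 55486 genes kept), 1 coefficient per group, the number as a block (8 residual degrees of freedom) and Benjamini-Hochberg adjustment over all genes tested. The SE was derived from the log2 fold change and the square root of F, and is unreliable near 0 counts. Pair differences used log2 CPM with a prior count of 2. Nothing says that libraries came from separate animals, so p-values measure the spread between these libraries. Replicates of a group differed by far more than sampling noise (chi-square per degree of freedom at least 18.6). The numbers pair the libraries because every same-number correlation of deviations was over 0.1. One entry named no gene and held 0 counts. Promoters came from RefSeq (GRCm38.p6; 13979 promoters of 10901 genes tested, 75.5% of them at a GENCODE M21 transcript start), and 14831 genes tested were found in GENCODE M21.

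The text names the 15 largest increases and 15 largest decreases among called genes (same direction in all 4 pairs, average log2 CPM from 3 upward, no predicted genes), per list up to 4 called members with the smallest p or 2 where none was called, 14 fixed genes and the 5 called genes with the smallest p. The members and lists were chosen with earlier results of these data known, and sums of marker lists without their most abundant genes were added after seeing the data. Alternatives were DESeq2 1.42.0, limma-voom (limma 3.58.1), no block, other scalings and filters, microglial libraries only, robust shrinkage and leaving out libraries. The code was tested on simulated data.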

Additional observations from a re-analysis of the deposited data

Results flagged for a closer look

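Some values stood apart within a group of 4 libraries (by the ratio of the gap to the nearest value to the range, against Dixon's critical value; 158 groups were examined and about 1 in 20 is flagged by chance, while 13 were). Without lipid load these were number 221 for AA467197 (6.61 CPM, high) and Cd36 (292, high), number 224 for Cass4 (60.7, high), Tpi1 (714, low) and Ldha (1039.7, low), and number 431 for Clk4 (152, low), Abca1 (441, low) and the myelin markers without Trf (158, low). With lipid load they were number 221 for Cd36 (349, high), Scd2 (279, low) and the neutrophil markers without Csf3r (60.2, high), and number 224 for Tpi1 (1023, low) and Klrb1b (0.223, high).

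The change with lipid load differed between MDM and microglia, by the edgeR test of the difference itself, in 22 of 61 genes examined. Over all genes tested, 657 differed (4.43%). Many of the 61 were named for their change in microglia, which is part of the difference, so the count is a description. The difference of log2 fold changes (MDM minus microglia) was -4.10 for AA467197, -3.71 for Ndrg1, -1.88 for Hilpda, -1.75 for Cxcl1, -1.75 for Anxa2, -1.20 for Lgals3, -1.19 for Il1b, -0.92 for Bnip3l, -0.87 for Stk17b and -0.81 for Ldha. It was 5.82 for Kynu, 2.46 for Maml2, 2.30 for P2ry12, 2.27 for St3gal6, 2.12 for Tmem119, 1.76 for Lpl, 1.49 for Tgfbr1, 1.35 for Mylip, 1.31 for Trem2, 1.04 for Abca1, 0.94 for Hmox1 and 0.90 for Ssh2. Kynu had 0 counts in lipid-laden microglia, so its value depends on the prior count.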

How the results depend on the processing

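Every call depended on the replicate block and on number 718. With the block, DESeq2 called 590 of 10526 genes and limma-voom 212 of 14843. With no replicate block edgeR called 0, and 0 members of the hypoxia, glycolysis, immediate early and disease- or lipid-associated lists. limma-voom called 11 hypoxia genes, and DESeq2 called 14 glycolysis, 15 immediate early and 11 disease- or lipid-associated genes. Genes whose effect differed from MDM fell from 657 to 375 without the replicate block. Leaving out 1 library or number gave 0 to 162 called genes, 0 to 7 hypoxia, 0 to 12 glycolysis, 0 to 6 immediate early and 0 to 9 disease- or lipid-associated genes. The count was 17, 68, 13 and 0 without number 221, 224, 431 and 718. Other scalings, filters, robust shrinkage and microglial libraries alone gave 119 to 149 calls, with 80 of 116 tested genes shared for microglia alone. The 119 genes kept their sign under every setting in which they were tested. With limma-voom 59.0% of called genes were higher and with microglial libraries alone 63.1%, against 60 of 119. Other scalings moved the median of all genes by less than 0.1.

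Sign changes occurred in Apoe, Trem2 and Cd36, none of them called. Scaling by library size alone gave -0.011 for Apoe and -0.012 for Trem2, and limma-voom gave -0.0051 for Trem2. Leaving out a library or number gave -0.071 to 0.12 for Apoe, -0.13 to 0.13 for Trem2 and -0.26 to 0.98 for Cd36. The causes were not tested. Depth limits the genes near 0 counts (Kynu, Dpp4, Klrb1b and Mmp8), whose fold is a bound or a wide interval.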
